A study of Mus musculus with 2 samples.

Results

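The genes described here belong to the interleukin-1 family of cytokines, with its receptors, its inhibitors and the protease that matures its ligands, in the mouse microglial cell line BV2. The 10 genes are Il1a, Il1b, Il1rn, Il1r1, Il1r2, Il1rap, Il1rl1, Il18, Il18bp and Casp1, and 8 of them were measured, of 19938 genes in all. The annotation used here pairs no transcript cluster with Il1r1 or Il1rl1, which were not analysed. The 10 names were chosen from the family with the log2 values of these same arrays in view, in both media and as their difference, so the values below are a description of the arrays and support no claim about the media. BV2 is a line of immortalized mouse microglia, which are the macrophages that live in the brain. Cells were plated in DMEM/F12, a medium enriched in nutrients, and on the following day the cells received fresh DMEM/F12 or DMEM, a standard medium, both with fetal bovine serum, penicillin and streptomycin. The DMEM/F12 sample therefore stayed in its medium, while the DMEM sample had been moved out of DMEM/F12. The methods give 1 d of incubation after the change, and the labels give over 1 day. RNA of each medium was hybridized to 1 Affymetrix Mouse Gene 1.0 ST array, so the data hold 1 DMEM/F12 array and 1 DMEM array, which the study used to look for genes tied to the shape of the cells.

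Interleukin-1α and interleukin-1β are agonists of the same receptor, which needs an accessory chain to signal through the adaptor MyD88 to NF-κB and the MAP kinases. Interleukin-1α is active in its precursor form, whereas interleukin-1β and interleukin-18 are made as inactive precursors that caspase-1 cleaves within inflammasomes. The family carries its own brakes, which are a receptor antagonist, a decoy receptor and a soluble binding protein for interleukin-18. In the brain, microglia are a main source of interleukin-1.

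Each value is a log2 expression value of a transcript cluster, a group of probes that together measure a gene. Each difference is DMEM/F12 minus DMEM on the log2 scale. As background, the 95th percentile of 1245 clusters for sensory receptor genes (olfactory, vomeronasal and taste) was taken, which was 4.17 in DMEM/F12 and 4.15 in DMEM. Since each medium has a single array, replicate error is unknown, and neither a test nor a p-value is given. A gene is counted as apart when it differs by at least 1.5-fold, which is 0.58 on the log2 scale. Levels of different genes come from different probes and were not compared with each other. Levels summed over a list of markers serve only to set the media side by side.

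The cells carried the markers of their label. Of 12 markers of microglia and macrophages, 11 were above background, and the other one was Aif1. Among all 19938 genes, 13225 were above background on at least 1 array. The summed level of the 12 was 13.64 in DMEM/F12 and 13.62 in DMEM on the log2 scale. Of 5 measured markers of homeostatic microglia, Tmem119 and Sall1 were above background, while P2ry12, Fcrls and Siglech were not. Tmem119 had 6.05 in DMEM/F12 and 6.71 in DMEM, a difference of -0.66, and the summed level of the 5 was 6.92 in DMEM/F12 and 7.34 in DMEM. Whether this bears on the values of the interleukin-1 family was not tested. Of 23 measured markers of astrocytes, neurons, oligodendrocytes, endothelium, T cells and mast cells, 7 were above background. The levels of all 23 ran from 2.34 to 5.22 in DMEM/F12 and from 1.99 to 5.10 in DMEM. The summed levels of these 6 cell types ran from 5.49 to 6.23 in DMEM/F12 and from 5.37 to 6.30 in DMEM. Each of these sums holds only 3 to 5 genes, so it cannot be set against the sum of the 12. In RNA from whole cultures, fewer expressing cells and less RNA per cell cannot be told apart.

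Il1a and Il1rn, the agonist interleukin-1α and the receptor antagonist that competes with it, were the members that stood apart between the media, and both had the higher value in DMEM/F12. Il1rn had a log2 value of 7.41 in DMEM/F12 and 6.72 in DMEM, a difference of 0.69 or 1.61-fold. Il1a had 7.26 in DMEM/F12 and 6.61 in DMEM, a difference of 0.65 or 1.57-fold. Both genes were well above background on both arrays, by 3.24 and 2.57 for Il1rn and by 3.09 and 2.46 for Il1a in DMEM/F12 and DMEM. The differences of this agonist and of its antagonist lay 0.04 apart. Counted from the highest difference of the 19938 genes, Il1rn was number 81 and Il1a number 109.

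Of the 8 measured members, 2 were at least 1.5-fold higher in DMEM/F12, where 0.928% of all genes were, and 0 were at least 1.5-fold lower, where 0.727% were. Among the 2575 genes with a mean log2 value from 6.5 to 7.5, the range that holds Il1a and Il1rn, 0.66% were at least 1.5-fold higher. At 2-fold, 0 members were apart, where 0.0602% of all genes were higher and 0.0251% lower. The members were named with these differences known, so nothing is read from their share. Of the 8, 5 had a higher value in DMEM/F12 and 3 a lower one, against 47.2% and 45.5% of all genes, but 3 of the 5 (Il1b, Il18 and Il1r2) were below background on both arrays. The median difference of the 8 was 0.19, while that of all genes was 0.00. This median rests on the dim members: it was 0.02 with values raised to background and -0.02 over the 5 members above background.

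**Figure D1:**
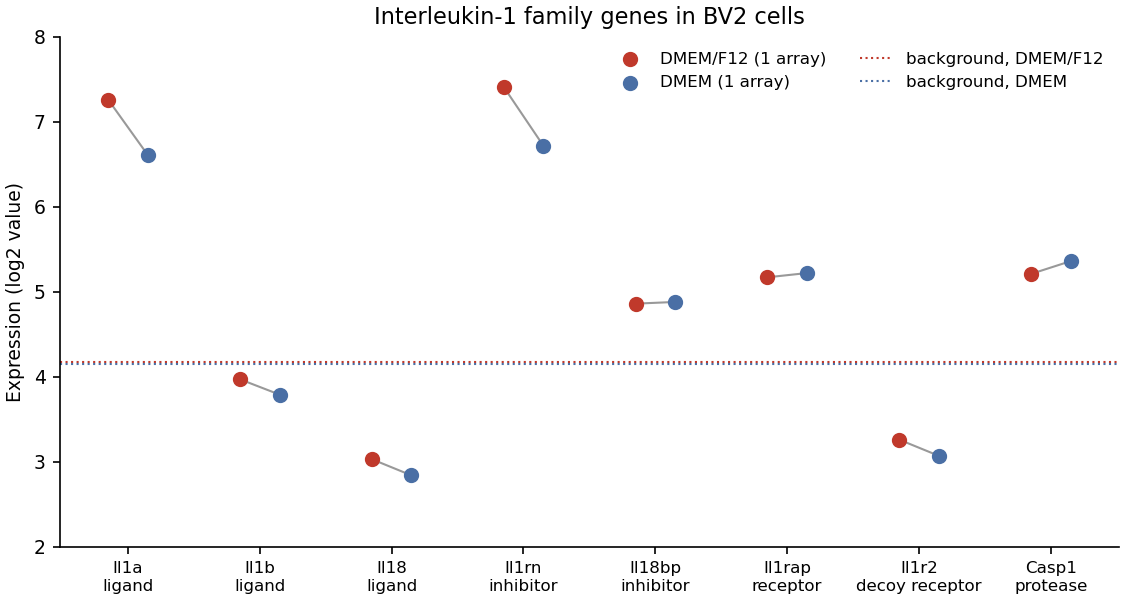
Log2 expression value (y axis) of each measured member (x axis, with its role), with the DMEM/F12 array as the left dot and the DMEM array as the right dot of each pair. Dotted lines mark background on each array. Il1a and Il1rn lie at 7.26 and 7.41 in DMEM/F12 and at 6.61 and 6.72 in DMEM, while the 6 other members differ by -0.15 to 0.19.

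The promoters of these 2 genes are shown together with that of Il1b, the immediate neighbour of Il1a, which was not above background. Windows of 250 bases before and 50 bases after annotated starts were taken from RefSeq (GRCm38.p6), where all 10 genes were matched by symbol to 14 windows. Il1rn has 3 windows, and the one with the most upstream start is printed. The arrays do not show which start was used. The 250 bases before the start are given 5′ to 3′ on the strand of the gene, and capitals mark matches to the motifs searched.
Il1rn, chr2:24336610-24336859, plus strand: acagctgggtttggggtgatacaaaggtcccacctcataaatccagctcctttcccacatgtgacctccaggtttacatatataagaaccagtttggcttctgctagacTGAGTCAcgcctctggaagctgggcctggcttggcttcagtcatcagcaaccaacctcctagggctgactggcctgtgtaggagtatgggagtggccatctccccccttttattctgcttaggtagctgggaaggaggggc
Il1a, chr2:129309973-129310222, minus strand: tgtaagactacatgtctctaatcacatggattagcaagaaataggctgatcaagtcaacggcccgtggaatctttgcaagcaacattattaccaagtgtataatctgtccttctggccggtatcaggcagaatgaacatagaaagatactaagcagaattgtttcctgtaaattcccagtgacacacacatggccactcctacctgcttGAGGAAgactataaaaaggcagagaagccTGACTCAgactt
Il1b, chr2:129371140-129371389, minus strand: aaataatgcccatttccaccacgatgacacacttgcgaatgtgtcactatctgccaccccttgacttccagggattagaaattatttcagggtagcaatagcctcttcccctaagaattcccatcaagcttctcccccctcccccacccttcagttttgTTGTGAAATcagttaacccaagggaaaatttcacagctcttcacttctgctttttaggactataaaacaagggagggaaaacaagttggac

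The AP-1 motif (TGANTCA) was found in the windows of Il1rn and Il1a and of no other member. This is 2 of the 14 member windows, against 7.81% of all 32851 windows. By gene it is 2 of the 10 members, against 8.97% of all genes with a window. As 6 motifs were searched in a few windows, nothing is read from these shares. In Il1a the match TGACTCA starts 12 bases before the annotated start, and in Il1rn the match TGAGTCA starts 141 bases before it. The other 2 windows of Il1rn did not hold this motif. The capitals GAGGAA in Il1a, 41 bases before its start, match the core of the motif of PU.1, the main transcription factor of macrophages, which 28.3% of all windows held. Casp1 and Il1rl1 also had a match to it. In Il1b the capitals match the C/EBP motif (TTNNGNAAT), which was also found in Il1r1, Il1rl1 and the other windows of Il1rn. It was held by 6 of the 14 member windows, against 11.5% of all windows. The other 2 windows of Il1rn overlap, and their match is the same site counted in both. The GAS motif (TTCNNNGAA, 8.3% of all windows) was found in Il1r2, and a pair of GAAA spaced by NN, as in interferon response elements (3.44%), in Il1rap. The κB motif, held by 5.8% of all windows, was found in 0 of the 14 member windows. Both strands were searched, and 0 matches of different motifs overlapped. A match is a run of letters in this window and shows no binding, and a window without one says nothing about the factor.

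Among the ligands, only Il1a was above background. Il1b, which like Il18 encodes a precursor that caspase-1 cleaves, had a log2 value of 3.97 in DMEM/F12 and 3.79 in DMEM. These values lie 0.20 and 0.36 below background. Il18, which induces interferon-γ in lymphocytes together with interleukin-12, had 3.03 in DMEM/F12 and 2.84 in DMEM, and thus lay 1.14 and 1.31 below background. The differences of 0.18 for Il1b and 0.19 for Il18 are between signals that were not above background. Of the 6713 genes above background on neither array, the upper quartile of the difference was 0.16 and the 95th percentile 0.40. With values below background raised to it, both differences were 0.02, which is the difference between the backgrounds themselves.

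The inhibitors did not share the pattern of Il1rn. Il18bp, the secreted protein that binds interleukin-18, had a log2 value of 4.86 in DMEM/F12 and 4.88 in DMEM, a difference of -0.02, and was above background on both arrays. Il1r2, the decoy receptor that takes up interleukin-1 without signalling, had 3.26 in DMEM/F12 and 3.07 in DMEM, both below background. Its difference of 0.19 became 0.02 with both values raised to background. Il1rn was therefore the one inhibitor of the 3 measured that was both above background and at least 1.5-fold apart.

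Of the 3 signalling receptor chains among the 10 genes, only the accessory chain was paired with a transcript cluster in the annotation used here. Il1rap, the chain that the receptors for interleukin-1, interleukin-33 and interleukin-36 share, had a log2 value of 5.17 in DMEM/F12 and 5.22 in DMEM, a difference of -0.05. Its values lay 1.00 above background in DMEM/F12 and 1.07 above it in DMEM. Il1r1, the ligand-binding chain for interleukin-1α and interleukin-1β, and Il1rl1, also called ST2, the receptor of interleukin-33, were the members not analysed here. Casp1, the protease of the inflammasome, had 5.21 in DMEM/F12 and 5.36 in DMEM, a difference of -0.15 or 1.11-fold lower. Over all genes, the lower quartile of the difference was -0.14 and the 5th percentile -0.36.

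**Figure D2:**
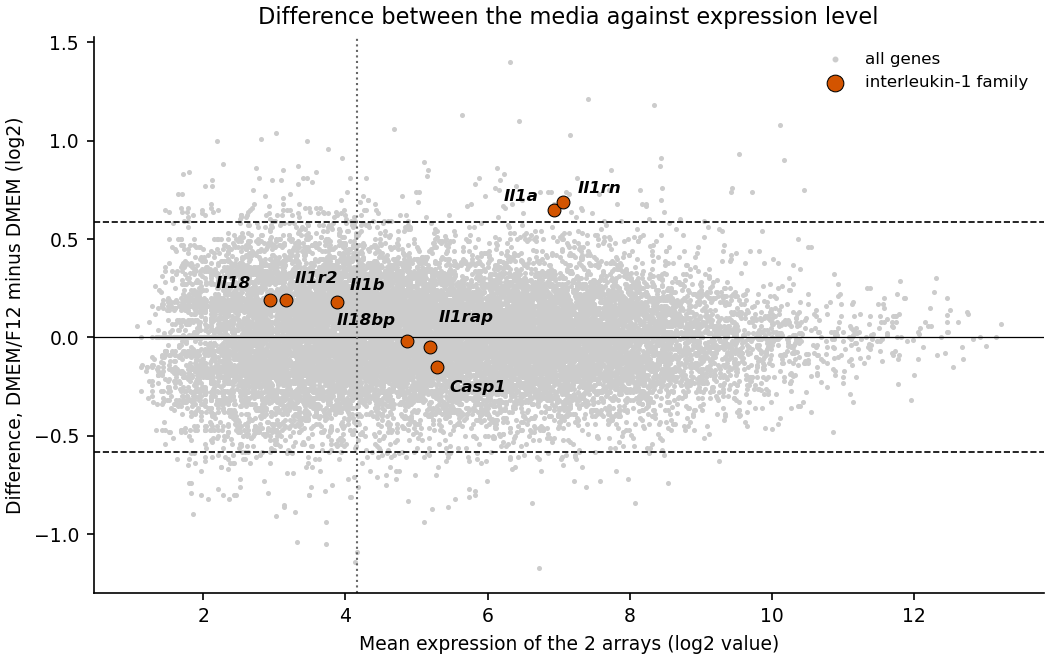
Difference between the media (y axis, log2 value in DMEM/F12 minus DMEM) plotted on the level averaged over both arrays (x axis, log2) for 19938 genes (gray) and the 8 measured members (orange, named). Dashed lines mark 1.5-fold and the dotted line the mean of the 2 backgrounds. Il1a (0.65) and Il1rn (0.69) lie above the upper dashed line, and the other members between -0.15 and 0.19.

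The rest of the family was mostly dim. None of the 6 other ligand genes was above background, where 13225 of all 19938 genes were on at least 1 array. Il33, the alarmin that signals through Il1rl1, had 3.30 in DMEM/F12 and 3.17 in DMEM. The genes of the interleukin-36 agonists had 2.59 and 2.78 (Il1f6), 1.92 and 2.31 (Il1f8), and 2.65 and 2.85 (Il1f9) in DMEM/F12 and DMEM. The values of Il1f5, the interleukin-36 receptor antagonist, were 4.09 in DMEM/F12 and 3.79 in DMEM, and those of Il1f10, which encodes interleukin-38, were 3.14 in both. Of these 6 genes, 2 had a higher and 3 a lower value in DMEM/F12, and the differences ran from -0.39 to 0.30, with a median of -0.10, or 0.02 with values raised to background.

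Among the 6 other receptor genes, 3 were above background on at least 1 array. Il1rl2, the interleukin-36 receptor, had 5.41 in DMEM/F12 and 5.59 in DMEM. Sigirr, an inhibitory receptor of the family, had 5.15 in DMEM/F12 and 5.24 in DMEM. Il18rap, the accessory chain for interleukin-18, had 4.09 in DMEM/F12 and 4.33 in DMEM, so it was above background in DMEM only. Its partner Il18r1 had 2.48 in DMEM/F12 and 2.79 in DMEM, both below background. Of the paralogs Il1rapl1 and Il1rapl2, known from neurons, the first had 2.23 in DMEM/F12 and 2.51 in DMEM and the second 1.68 in both. The 6 receptor genes had 0 higher values and 5 lower ones, against 47.2% and 45.5% of all genes, and none was at 1.5-fold. Of the 5 lower ones, Il18r1 and Il1rapl1 were below background on both arrays. The median was -0.21, or -0.035 with values raised to background and -0.18 over the 3 genes above background on at least 1 array.

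Il1a and Il1b lie side by side on mouse chromosome 2, and Il1rn lies on the same chromosome beside Il1f10. In the order of protein-coding genes in RefSeq, the genes next to Il1rn were Il1f10, with a difference of 0.00, and Psd4, with 6.64 in DMEM/F12 and 6.65 in DMEM. Next to Il1a were Ckap2l, with 6.90 in DMEM/F12 and 6.80 in DMEM, and Il1b. The 4 genes on either side of Il1rn differed by -0.20 to 0.30. Those on either side of Il1a differed by -0.42 to 0.18, and the lowest of them was F830045P16Rik. None of these neighbours was 1.5-fold apart. Casp1 lies beside Casp4, the protease of the noncanonical inflammasome, which had 5.51 in DMEM/F12 and 5.22 in DMEM, a difference of 0.29 against the -0.15 of Casp1.

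**Figure D3:**
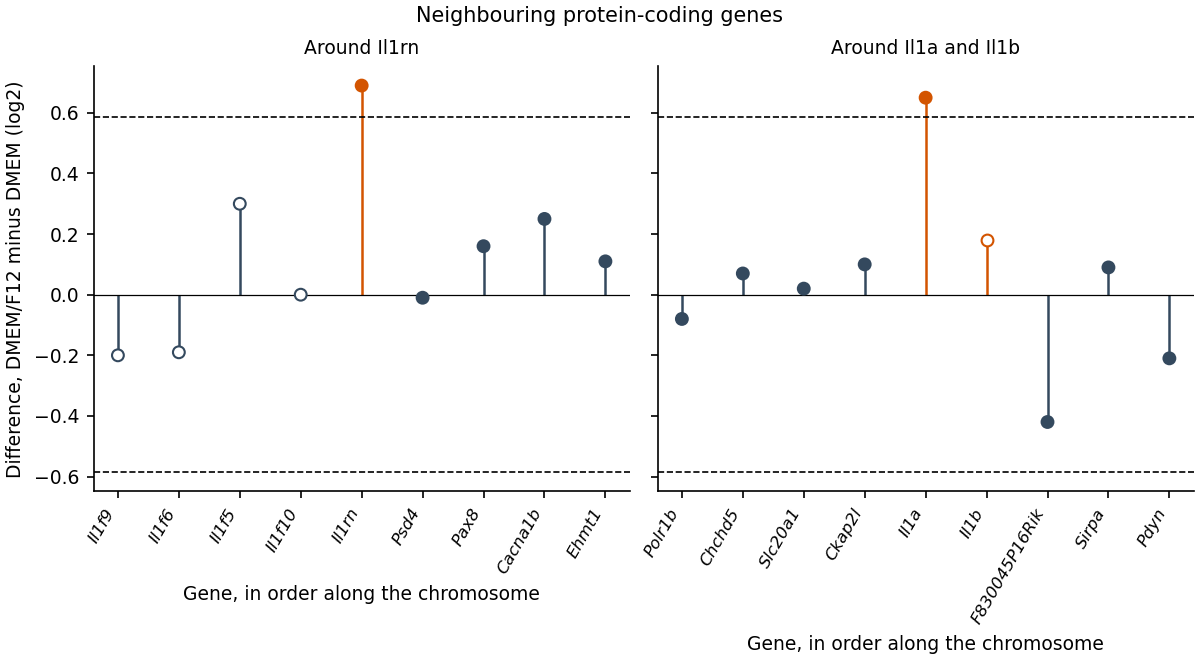
Difference between the media (y axis, log2, DMEM/F12 minus DMEM) for the 4 protein-coding genes on either side of Il1rn (left) and Il1a (right), in their order along chromosome 2 (x axis). Members are orange, open symbols are genes above background on neither array, and dashed lines mark 1.5-fold, which only Il1rn (0.69) and Il1a (0.65) pass.

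The machinery around the ligands was measured with lists of genes grouped by role. These lists, like those of the other ligands and receptors, were chosen with earlier results of these arrays known. Nothing is therefore read from their shares. Inflammasome sensors, adaptors and effectors had 12 of 20 genes higher and 6 lower in DMEM/F12, against 47.2% and 45.5% of all genes, with 0 genes at 1.5-fold. The median was 0.10, or 0.055 with values raised to background and 0.135 over the 16 genes counted as above it. The other 4 of the 20 had no cluster above background on either array. Gsdme is among the 16, since a gene counts when any of its clusters passes. Its mean over 2 clusters was below background, with 3.555 in DMEM/F12 and 3.345 in DMEM. The highest of those above background were Ninj1, which ruptures the membrane of dying cells, with 9.53 in DMEM/F12 and 9.09 in DMEM, and P2rx7, the ATP receptor that triggers the NLRP3 inflammasome, with 7.43 in DMEM/F12 and 7.13 in DMEM. The lowest were Nlrc4, a sensor that acts with NAIP proteins, and Aim2, a sensor of cytosolic DNA. Nlrc4 had 4.09 in DMEM/F12 and 4.25 in DMEM, so it was above background in DMEM only. Aim2 had 8.55 in DMEM/F12 and 8.65 in DMEM. Named for their role and after their values were seen, Nlrp3 had 5.29 in DMEM/F12 and 5.14 in DMEM, and Pycard, the adaptor that links sensors to caspase-1, had 4.03 in DMEM/F12 and 4.08 in DMEM, below background on both arrays.

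Downstream of the receptor, 11 of 22 signalling genes had a higher and 9 a lower value in DMEM/F12, against 47.2% and 45.5% of all genes, with a median of 0.02 and none at 1.5-fold. Irak1 and Irak2, kinases recruited through MyD88, differed by 0.49 and 0.40. Irak1 had 7.46 in DMEM/F12 and 6.97 in DMEM, and Irak2 had 6.79 in DMEM/F12 and 6.39 in DMEM. The other end of the list held Ecsit, an adaptor that binds TRAF6, with 6.0 in DMEM/F12 and 6.37 in DMEM, and Myd88 itself, with 8.87 in DMEM/F12 and 9.21 in DMEM. Irak4 and Chuk were not analysed here.

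Genes that interleukin-1 is known to induce, with feedback genes of NF-κB, had 20 of 30 higher and 6 lower values, against 47.2% and 45.5% of all genes. At least 1.5-fold higher were 2 of the 30 and at least 1.5-fold lower was 1, against 0.928% and 0.727% of all genes. The genes were listed with earlier results of these arrays known, so nothing is read from these shares either. Of the 30, 6 were below background on both arrays. The median was 0.18, or 0.065 with values raised to background and 0.19 over the 24 genes above background on at least 1 array. Nfkbia, the gene of IκBα, an inhibitor of NF-κB, had 7.67 in DMEM/F12 and 6.64 in DMEM, a difference of 1.03. Tnfaip3, which encodes the deubiquitinase A20, had 6.45 in DMEM/F12 and 5.84 in DMEM, a difference of 0.61. In the opposite direction, Ptgs2, the gene of COX-2, had 6.14 in DMEM/F12 and 7.31 in DMEM, a difference of -1.17, and the chemokine gene Ccl2 had 7.23 in DMEM/F12 and 7.81 in DMEM, a difference of -0.58 that just missed 1.5-fold. The list thus held genes at both ends.

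**Figure D4:**
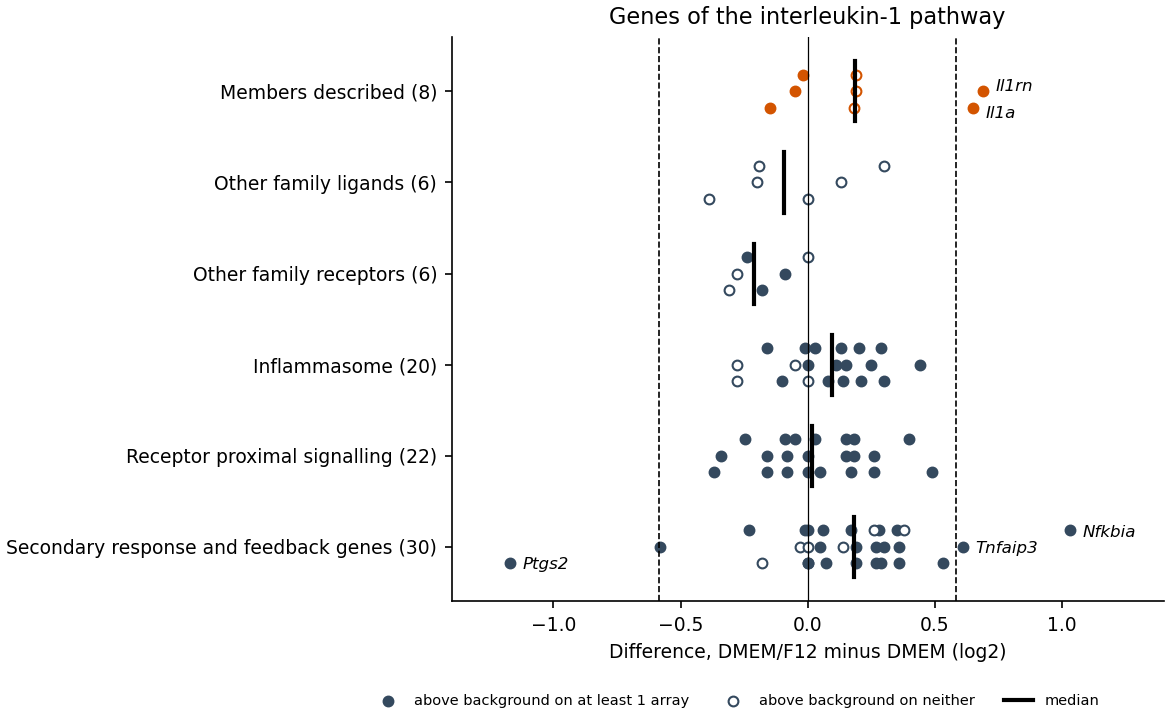
Difference between the media (x axis, log2, DMEM/F12 minus DMEM) for the genes of 6 groups (y axis, number of genes measured in parentheses). Filled dots are genes above background on at least 1 array, open dots those above it on neither, black bars are medians and dashed lines mark 1.5-fold, which Il1a, Il1rn, Nfkbia, Tnfaip3 and Ptgs2 pass.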

How the data were processed

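The authors hybridized RNA of BV2 cells to Affymetrix Mouse Gene 1.0 ST arrays and, per the submitters' processing notes, used Transcriptome Analysis Console and Affymetrix Expression Console. They deposited log2 values with 2 decimals for 28944 transcript clusters. Not given in the sources used here are versions, summarization, normalization and genome build. Another normalization could move genes by unlike amounts. The medians of the arrays were 4.77 in DMEM/F12 and 4.75 in DMEM. Media were assigned by the labels. The platform annotation gave 21789 clusters with exactly 1 symbol, which stand for 19938 genes, and genes with several clusters took the mean. Such a gene was counted as above background on an array when any of its clusters was. Each measured member had 1 cluster, and 0 clusters with several symbols named a member. No further scaling was applied. With 1 array per medium no test was run, and the number of arrays limits the precision. All 10 members, and in each other list of the pathway the 2 highest and 2 lowest genes above background with every gene past 1.5-fold, were to be named, with all other family ligands and receptors. Members, lists and threshold were chosen with earlier results of these data known. Python 3.11.15, numpy 2.4.6, pandas 2.3.3, statsmodels 0.14.6 and matplotlib 3.10.9 were used. Only the centring of arrays and the count of genes past 1.5-fold were tested on simulated data, with planted 2-fold changes.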

Additional observations from a re-analysis of the deposited data

How the results depend on the processing

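No paired analysis was possible because there is only 1 array for each medium. A shift of over 0.1 in a log2 value, or of over 1.5 times in a count, was read as a move. The 3 alternatives that could change the values of Il1a and Il1rn were median centring, quantile normalization and loess centring (span 0.3). Both genes remained at least 1.5-fold higher in DMEM/F12, with differences of 0.63 to 0.67 for Il1a and 0.67 to 0.71 for Il1rn. Median centring lowered every difference by 0.02, so it could not take either gene below 1.5-fold. At 2-fold the count of members apart was 0 in place of 2. The median of 0.19 over the members became 0.02 with dim values raised to background and -0.02 over the 5 members above background. Raising dim values to background, the brightest cluster per gene and the addition of clusters with several symbols were also run on single members. Of the 48 differences in all, 21 could not change, since each member has 1 cluster and 5 lie above background on both arrays. Of the other 27, 24 moved by at most 0.1, and the rest were those of Il1b, Il18 and Il1r2 with values raised to background. The 27 include the median-centred difference of every member, which could move by 0.02 only. For the other lists, alternatives for dim values were chosen after seeing the data. With values raised to background the medians became 0.02 for other ligands, -0.035 for other receptors and 0.065 for secondary response genes, and no other list median moved. Raising gives every gene that is dim on both arrays the same difference. Over genes above background only, the medians were -0.18 for other receptors, 0.135 for inflammasome genes and 0.19 for secondary response genes. None of these was a move, and no other ligand was above background. Signal over background limits what can be said of Il1b, Il18 and Il1r2. Il18bp, Il1rap and Casp1 lay above background by 0.69 to 1.04 in DMEM/F12 and by 0.73 to 1.21 in DMEM. Passing background says little of these genes by itself, since 7 of 23 markers of other cell types also passed it.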
